A study of Mus musculus with 6 samples.

Results

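The Nogo receptor and reticulon family was followed through RNA-seq of intestinal tissue from mice with colitis induced by dextran sulfate sodium (DSS). Its 10 members were taken by gene symbol from 55335 rows of the deposited count table: the Nogo receptors Rtn4r, Rtn4rl1 and Rtn4rl2, the reticulons Rtn1, Rtn2, Rtn3 and Rtn4, and the co-receptors Lingo1, Ngfr and Tnfrsf19. All 10 symbols were found, each in 1 row. The family was chosen by a measured value, the fold change of Rtn4rl1 between the genotypes in these same libraries, so the values of that contrast describe the members and support nothing further.

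Wild-type mice (WT, libraries WT185, WT186 and WT187) were compared with Trmt6-/- mice (KO72, KO73 and KO75), 3 in each group, and every mouse in both groups had DSS colitis. Trmt6 encodes a subunit of the enzyme that methylates adenosine in tRNA. The labels give no age, sex, strain or intestinal segment, and they do not say how the Trmt6 allele was made or in which cells it was lost. Untreated mice were not analysed here.

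Reticulons are membrane proteins that bend the endoplasmic reticulum (ER) into tubules, and the Nogo forms of RTN4 also act at the surface of myelin as inhibitors of axon growth. The Nogo receptors are leucine-rich-repeat proteins held to the cell surface by a glycosylphosphatidylinositol (GPI) anchor. Having no cytoplasmic part, the Nogo receptor RTN4R signals to the small GTPase RhoA through partners such as LINGO1 and the neurotrophin receptor NGFR or its relative TNFRSF19. The family is best known from neurons, whereas RTN3 and RTN4 are made in most cell types and Tnfrsf19 is a Wnt target of intestinal crypts.

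The receptors are related but not near-identical copies, which bears on whether reads could be assigned to the wrong gene. Their coding sequences are shown over 1 homologous stretch of 74 bases that lies within 1 exon of each gene (GENCODE M21 transcripts, GRCm38), with capitals at the 38 positions (51.4%) where all 3 carry the same base.
Rtn4rl1: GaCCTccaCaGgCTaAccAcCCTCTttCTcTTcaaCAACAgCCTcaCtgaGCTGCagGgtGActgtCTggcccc
Rtn4rl2: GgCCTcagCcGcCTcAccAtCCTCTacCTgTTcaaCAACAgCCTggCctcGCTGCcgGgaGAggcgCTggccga
Rtn4r: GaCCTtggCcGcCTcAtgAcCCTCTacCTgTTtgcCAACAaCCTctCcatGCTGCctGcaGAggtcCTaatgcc
The stretch lies at chr11:75265398-75265471 on the plus strand for Rtn4rl1, at chr2:84872463-84872536 on the minus strand for Rtn4rl2 and at chr16:18151379-18151452 on the plus strand for Rtn4r. It was picked because it holds the longest run of identical bases between the coding sequences of Rtn4rl1 and Rtn4rl2, which is 14 bases. The longest run was 13 bases between Rtn4r and Rtn4rl1 and 15 between Rtn4r and Rtn4rl2. Among the reticulons it was 11 to 14 bases, and aligned parts of the coding sequences matched at 65.1% to 71.4% of columns. The 71.4% was that of Rtn2 and Rtn4, over 56 columns only. The aligned part had 184 columns for Rtn2 and Rtn3 and 493 to 565 for the other pairs of reticulons. No pair compared within the receptors or within the reticulons shared a coding stretch of more than 15 bases.

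Counting was without strand, so a gene that overlaps another on the opposite strand could lose reads. Rtn4 (chromosome 11, 29692947 to 29744331) shared 1284 exonic bases, 18.4% of its exons, with Eml6, which had 21 to 52 counts per library. Rtn3 shared 4 bases with 1 neighbour, and the other 8 members shared none. Rtn4rl1 (ENSMUSG00000045287.6; GRCm38 chromosome 11, 75193783 to 75267769, plus strand) has 2 exons and 1 annotated transcript. Rtn4r (ENSMUSG00000043811.5) lies on chromosome 16 from 18127642 to 18152408 on the plus strand. Rtn3 (ENSMUSG00000024758.15) lies on chromosome 19 from 7425901 to 7483281 and Tnfrsf19 (ENSMUSG00000060548.13) on chromosome 14 from 60963875 to 61046490, both on the minus strand.

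Counts per library summed to 15213972 to 16972758, and 14107 genes were abundant enough to test. The labels call the samples intestinal tissue, and markers of epithelium dominated them: 9 absorptive enterocyte genes summed to 16031 to 47138 CPM (counts-per-million, on scaled library sizes) in a library, against at most 8.38 CPM for 7 fibroblast genes and 2.65 CPM for 6 smooth muscle genes. Of 13 enteric neuron genes, 10 stayed under 1 CPM in every library and Nos1 and Vip had no count. Of 7 enteric glia genes, 4 stayed under 1 CPM and Sox10 had no count. KO72 had 39.8, KO73 34.2 and KO75 36.2 CPM of Trmt6, and WT185 had 30.9, WT186 18.7 and WT187 23.1 CPM, so the transcript was not lower where the label names a knockout. The exons removed are not given in the sources used here. The groups are therefore called the libraries labelled Trmt6-/- and WT, and every direction rests on those labels.

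Over all 6 libraries Rtn3 was the most abundant member, and Rtn4, Rtn4rl1 and Rtn4r followed. Tnfrsf19 came next at a low and uneven level, and the other members were near or at 0. In WT the mean of Rtn4rl1 was above that of Rtn4, at 28.7 ± 1.13 against 23.3 ± 12.7 TPM (SD, n = 3 libraries), with WT186 and WT187 higher in Rtn4rl1 and WT185 higher in Rtn4. In the group labelled Trmt6-/- Rtn4rl1 had a lower mean than Rtn4r and Rtn4. Compared per length as TPM, which scales counts by gene length and library total, Rtn3 was highest in all 6 libraries, at 129 to 166 TPM. Rtn4 had 11.6 to 47.2 TPM, Rtn4rl1 3.60 to 29.8 TPM and Rtn4r 4.81 to 12.3 TPM. Tnfrsf19 ran from 0.0419 to 4.26 TPM and Rtn2 from 0.130 to 1.39 TPM. Rtn1, Lingo1, Rtn4rl2 and Ngfr had mean levels of 0.0306 to 0.226 TPM over the 6 libraries. Of all genes in the table, 1127 had a higher mean TPM than Rtn3 and 6921 a higher one than Rtn4rl1.

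Neighbours in this order were compared within libraries. The order was read from the same levels, so a small p for a step is no independent evidence of it, and the steps next to Rtn4rl1 are given with no p because its values chose the family. Rtn3 exceeded Rtn4 in 6 of 6 libraries, by 2.57 ± 0.82 on the log2(TPM + 0.1) scale (SD, n = 6 libraries). Rtn4r exceeded Tnfrsf19 in 6 of 6, by 2.70 ± 1.57. Each of these had an exact two-sided sign-flip permutation p of 0.03125, the smallest that 6 libraries allow. The adjusted p was 0.141 over the 9 neighbouring pairs, so neither passed. Unless most pairs reach that smallest p, no pair can pass after this adjustment, so no conclusion is drawn from the failure. For the 5 steps below Tnfrsf19 the exact p ran from 0.125 to 1.0, and none passed. Rtn4 exceeded Rtn4rl1 in 4 of 6 libraries, by 1.08 ± 1.80, a difference smaller than its SD. Rtn4rl1 exceeded Rtn4r in 3 of 6 libraries, those of WT, at 2.33 to 3.89 times its TPM. In the libraries labelled Trmt6-/- it was at 0.749 to 0.986 times, a difference that follows from the choice of Rtn4rl1.

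**Figure D1:**
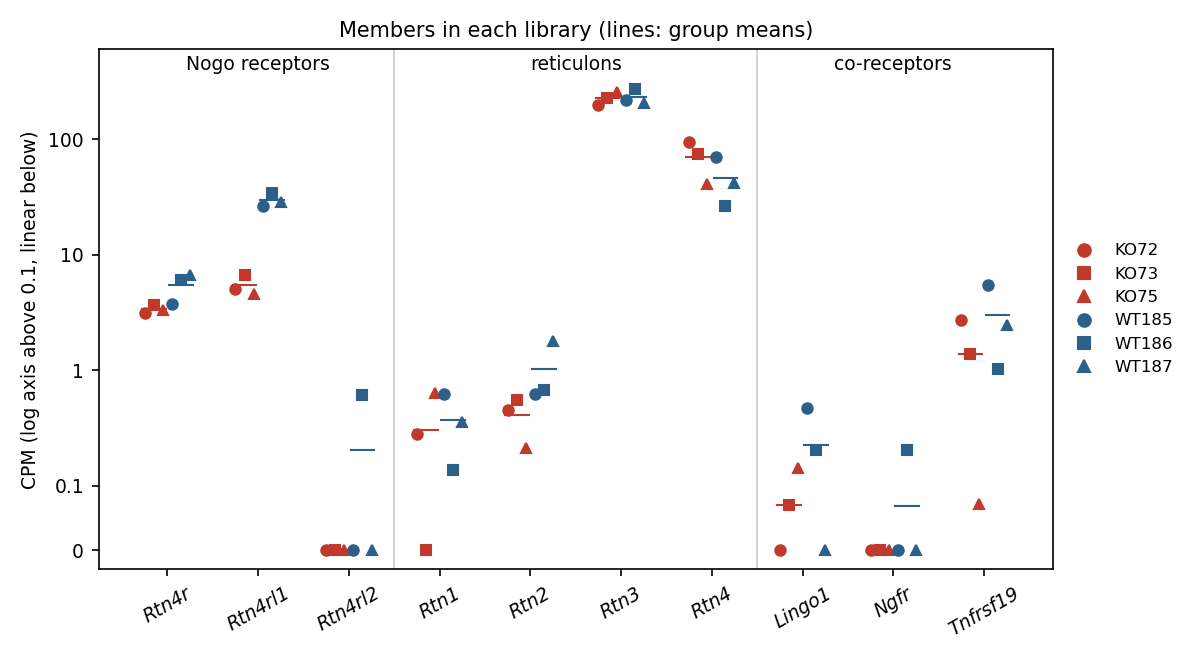
CPM of the 10 members in each library (points) with group means (lines); the vertical axis is logarithmic above 0.1 CPM and linear below. Rtn4rl1 lies at 4.55 to 6.64 CPM in the group labelled Trmt6-/- and between 26.6 and 34.0 CPM in WT, while Rtn3 overlaps between groups and Rtn4rl2 and Ngfr were counted in WT186 only.

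Among the receptors, Rtn4rl1 was lower in every library labelled Trmt6-/- than in any WT library. KO72 had 5.08, KO73 6.64 and KO75 4.55 CPM of Rtn4rl1, whereas WT185 had 26.6, WT186 34.0 and WT187 28.5 CPM, from 249 counts against 1484 in all. The groups lay far apart and the libraries of each group close together. The mean was 5.42 ± 1.08 against 29.7 ± 3.88 CPM (SD, n = 3 libraries in each group, the group labelled Trmt6-/- first here and in every later pair of group means). The level was 5.47-fold lower (log2 fold change -2.45 ± 0.22, estimate ± SE).

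This was the call that led to the choice of the family, and nothing is read from it here. Of the 10 members 5 were tested. With edgeR's quasi-likelihood test and Benjamini-Hochberg adjustment over all genes, 1 of these 5 was called, at an adjusted p of 0.0424. Of all genes tested, 0.0425% were called in either direction and 0.00709% were called lower. At an unadjusted p below 0.05 it was the same 1 member, beside 12.1% of genes tested in either direction and 5.94% lower. With any of the 6 libraries left out Rtn4rl1 no longer passed: the log2 fold change was -2.40 without KO72, -2.62 without KO73 and -2.34 without KO75, and -2.50, -2.33 and -2.49 without WT185, WT186 and WT187. The adjusted p then ran from 0.0710 to 0.198.

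Rtn4r, the receptor first described for Nogo, had the same direction at a smaller size. Its level was 3.10 CPM in KO72, 3.70 in KO73 and 3.34 in KO75, then 3.75 in WT185, 6.07 in WT186 and 6.71 in WT187. The groups did not overlap, but WT185 lay only just above KO73. Its log2 fold change was -0.70 ± 0.32 (edgeR adjusted p = 0.462), which misses the threshold, and -0.30 with an index of intestinal position as covariate. Rtn4rl1 and Rtn4r were the 2 of 5 tested members lower without overlap. Of all genes tested 18.7% had groups without overlap, 9.03% lower and 9.70% higher.

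Rtn4rl2, the remaining receptor, had 9 counts in WT186 and 0 in the other 5 libraries. A count of 0 allows up to 0.156 to 0.213 CPM depending on the library (3 counts, counting error only), so absence cannot be told from a level below that. Summed over receptors, the family's TPM was 5.03% to 6.30% receptor in the libraries labelled Trmt6-/- and 14.6% to 19.5% in WT, most of that gap coming from Rtn4rl1.

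Markers of intestinal position differed between libraries in the same comparison. An index of position was taken as the mean log2 level of 4 ileal genes (Fabp6, Slc10a2, Fgf15, Slc51b) less the mean of 4 proximal ones (Cybrd1, Fabp1, Gata4, Lct). It was 0.61 in KO72, -1.002 in KO73 and -3.74 in KO75, then -1.71 in WT185, -7.49 in WT186 and -6.08 in WT187. WT185 fell between KO73 and KO75 in this index, and had 26.6 CPM of Rtn4rl1 where these had 6.64 and 4.55 CPM. The part of position was not tested. Lct, the brush-border lactase, was measured at 518 ± 349 against 2180.1 ± 1269 CPM, and Fabp6, the ileal bile acid binding protein, at 208 ± 170 against 182 ± 313 CPM. With the index as covariate the log2 fold change of Rtn4rl1 was -2.36 ± 0.27 and no longer passed (edgeR adjusted p = 0.0588).

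Enteroendocrine cells, the hormone-producing cells of the epithelium, share many transcripts with neurons. All 9 of their marker genes had a log2 fold change below 0 (median -0.79, against -0.03 over all genes tested) and 0 passed, while 7 were lower without overlap. Their summed level ran from 166 to 180.0 CPM in the group labelled Trmt6-/- and from 301 to 451 CPM in WT, and no marker was at 0 in all libraries. Chgb, a granin of hormone granules, was measured at 66.7 ± 6.91 against 161 ± 40.7 CPM. Enteric neuron genes were summed at 17.5 to 43.8 against 7.85 to 9.07 CPM, the opposite direction, with most of it from Ret, at 27.7 ± 13.2 against 5.10 ± 0.97 CPM. Snap25, another of the 3 tested neuron genes, was lower without overlap, at 0.451 ± 0.049 against 1.97 ± 1.03 CPM (log2 fold change -2.10 ± 0.53, edgeR adjusted p = 0.225), and did not pass. Enteric glia genes were summed at 536 to 769 against 340 to 502 CPM, nearly all of it Erbb3, which epithelium also expresses. The part of these cell types and of position in the level of Rtn4rl1 was not tested. In bulk tissue, fewer cells of a type and less RNA per cell cannot be told apart.

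**Figure D2:**
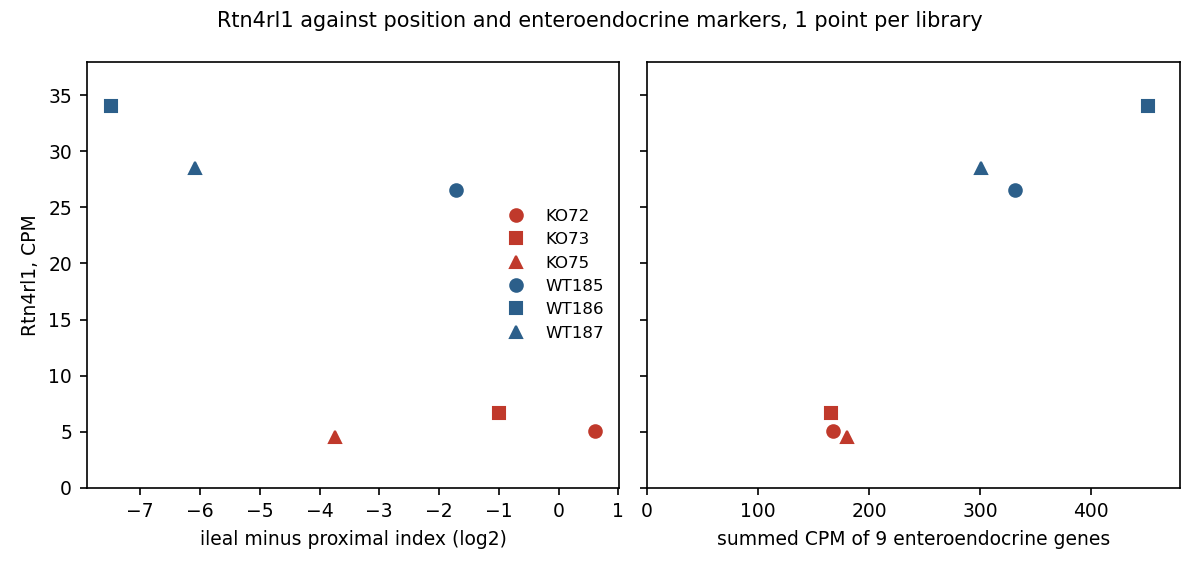
CPM of Rtn4rl1 against the position index (left, log2, higher toward ileum) and against the summed CPM of 9 enteroendocrine genes (right), 1 point per library. WT185 lies within the range of the libraries labelled Trmt6-/- in the index, at -1.71, and has 26.6 CPM of Rtn4rl1.

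Genes beside Rtn4rl1 on chromosome 11 overlapped between groups. The nearest tested genes are Dph1, which makes the diphthamide residue of a translation factor and ends 2541 bases before Rtn4rl1, and Ovca2 beyond it. On the other side lie Rpa1, a subunit of the single-strand DNA binding protein, at 30396 bases, and Smyd4. Dph1 had a log2 fold change of 0.16 ± 0.32 and Ovca2 of -0.23 ± 0.40. For Rpa1 it was -0.55 ± 0.34 and for Smyd4 -0.41 ± 0.39. None of the 4 passed, with edgeR adjusted p of 0.597 to 0.897.

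Of 10007 other named genes with a mean of at least 5 CPM, the 5 whose profile over the 6 libraries lay closest to that of Rtn4rl1 were Sypl2, Lrat, Pigr, Barx2 and Dio1. Likeness was the root mean square difference of mean-centred log2 CPM, which was 0.28 for Sypl2 and 0.35 to 0.43 for the others, against a median of 1.25. Sypl2, a relative of synaptophysin, had 3.10 CPM in KO72, 3.63 in KO73 and 2.92 in KO75, and 12.8 in WT185, 16.1 in WT186 and 10.3 in WT187. Lrat, the enzyme that esterifies vitamin A, was measured at 8.57 ± 4.53 against 35.3 ± 8.26 CPM. Pigr, the receptor that carries immunoglobulin A across the epithelium, was measured at 2256 ± 315 against 7598 ± 2420.2 CPM. Barx2, a homeobox gene, had 7.34 ± 2.75 against 37.5 ± 15.1 CPM, and Dio1, a deiodinase of thyroid hormone, had 14.0 ± 5.14 against 55.6 ± 23.6 CPM. Closeness to Rtn4rl1 selects genes that are lower in the libraries labelled Trmt6-/-, so their direction is no result, and none of the 5 passed over all genes (edgeR adjusted p of 0.112 to 0.180).

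Among the reticulons, Rtn3, which shapes ER tubules and serves as a receptor for their autophagy, had like means in both groups, at 227 ± 29.8 against 231 ± 33.9 CPM. Single libraries had 196 (KO72), 228 (KO73), 256 (KO75), 219.9 (WT185), 269 (WT186) and 205 (WT187) CPM. The groups overlapped, with a high and a low library in each, and the log2 fold change was -0.03 ± 0.19 (edgeR adjusted p = 0.973). Its sign turned with the position index as covariate (0.16) and without KO72 (0.07) or WT186 (0.11). In TPM, which is scaled by library totals, the groups just separated, at 129 to 142 against 144 to 166 TPM.

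Rtn4, the gene of the Nogo proteins, spread widely within both groups. Its level was 93.7 CPM in KO72, 73.8 in KO73 and 41.2 in KO75, against 70.4 in WT185, 26.3 in WT186 and 42.0 in WT187. The highest library of a group had 2.27 times the lowest in the group labelled Trmt6-/- and 2.68 times in WT. The groups overlapped, with a log2 fold change of 0.59 ± 0.42 (edgeR adjusted p = 0.662) that became -0.29 ± 0.19 with the position index as covariate (adjusted p = 0.443). It was 1.05 without WT185 and 0.31 without KO72 or without WT186. Gene-level counts pool the long and short Nogo forms, which have coding lengths of 597 to 3486 bases in the annotation. The pooled within-group SD of Rtn4 was 0.66 on the log2 CPM scale, and 7.3% of the 2489 genes within a factor of 1.5 of its level had a larger one. For Rtn3 it was 0.20, for Rtn4rl1 0.23 and for Rtn4r 0.32, and 62.4% to 74.6% of genes of like level had a larger SD than these 3. For Tnfrsf19 it was 1.64, and 1.8% had a larger one.

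The 2 remaining reticulons are mainly neuronal and muscle genes. Rtn2 had 8 counts in KO72, 8 in KO73 and 3 in KO75, and 12 in WT185, 10 in WT186 and 30 in WT187, too few to test. Its groups did not overlap in CPM, and WT187 alone held most of the WT counts. Rtn1, a neuroendocrine marker, had 0 to 12 counts per library. Its groups overlapped.

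Among the co-receptors, only Tnfrsf19 was abundant enough to test. KO72 had 2.71, KO73 1.40 and KO75 0.0712 CPM of it, the last from 1 count, while WT185 had 5.52, WT186 1.02 and WT187 2.46 CPM. The groups overlapped, with a log2 fold change of -1.09 ± 1.003 (edgeR adjusted p = 0.748) that was -3.22 ± 0.86 with the position index as covariate and did not pass either (adjusted p = 0.121). It was -2.03 without KO72, -0.55 without KO75 and -0.28 without WT185, and -1.69 with limma-voom. Lingo1 had 0 to 9 counts per library. Ngfr had 3 counts in WT186 and 0 in the other 5 libraries.

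Rtn4 and Tnfrsf19 followed the crypt markers from library to library within each genotype. The crypt stem cell gene Olfm4 was highest in KO72 and lowest in KO75, at 484 and 9.18 CPM, and highest in WT185 and lowest in WT186, at 1536 and 369 CPM. Rtn4 and Tnfrsf19 had this same order of libraries in both groups, as did 7 of the 8 crypt genes, Olfm4 included, and 14.1% of all genes tested. The exception was Rnf43. Among the other cell type markers, 2 of 6 Paneth cell genes (Ang4 and Defa30) and 1 of 7 goblet cell genes (Clca1) had this order too. Tnfrsf19 kept the order of the mean of the 8 crypt genes over all 6 libraries, WT185, KO72, WT187, KO73, WT186 and KO75, which 1.87% of genes and 0 of the 8 crypt genes singly did. Rtn4 did not, since WT185 was lower in Rtn4 than KO72 and KO73, and WT187 was lower than KO73. KO75, last in the crypt order, was also above WT186 in Rtn4, at 41.2 against 26.3 CPM. These 2 members were singled out after their values were seen. The position index had the same order within each group. Singly, 0 of its 4 ileal genes had it. The proximal genes enter the index with a minus sign, and of these Fabp1 and Gata4 had the reverse order in both groups. Crypt share and position therefore cannot be told apart here.

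**Figure D3:**
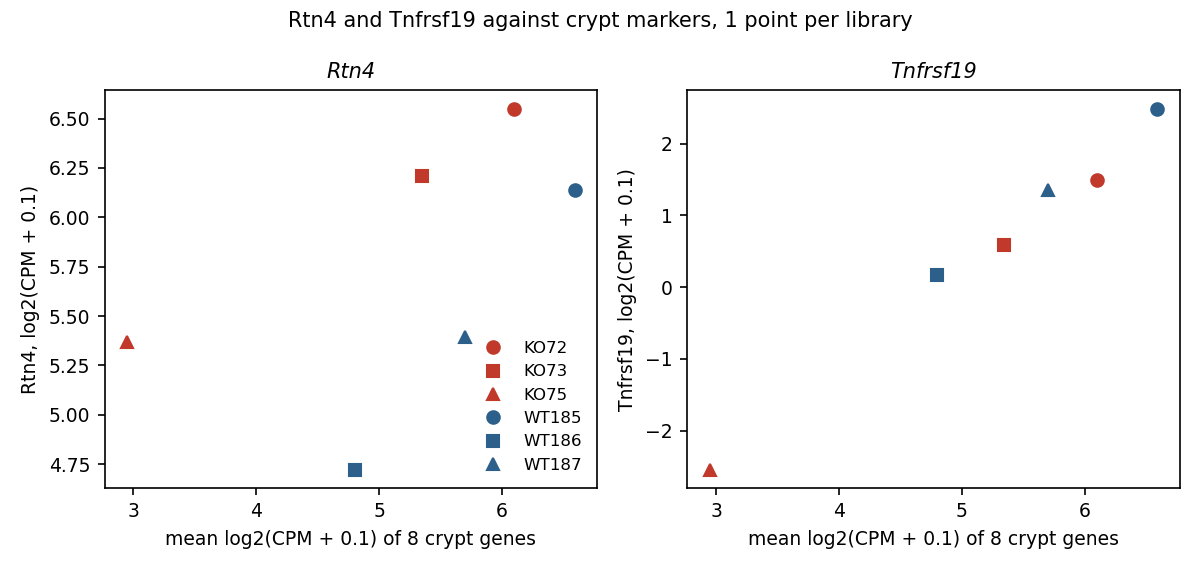
Rtn4 (left) and Tnfrsf19 (right) against the mean of 8 crypt genes, all as log2(CPM + 0.1), 1 point per library. Tnfrsf19 rises with the crypt mean over all 6 libraries from -2.55 in KO75 to 2.49 in WT185, whereas Rtn4 reaches its highest value, 6.55, in KO72.

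Because these 2 members moved with crypt genes, the bases before their start sites were read for the core that TCF/LEF factors, the DNA-binding partners of beta-catenin in Wnt signalling, recognise. Promoters of 9 of the 10 members were in the RefSeq table (GRCm38.p6), in 15 windows of 250 bases before a start site. The member without a window was Rtn4rl1, so the search does not cover it. The letters CTTTGAT on either strand were found in 1 of the 15 windows, that of an inner Tnfrsf19 start, and in 3.21% of all 32851 windows. That window, with the match in capitals 202 bases before the start, and the window of the outermost Rtn4 start, which holds no match, read as follows.
Tnfrsf19, chr14:61037988-61038237, minus strand: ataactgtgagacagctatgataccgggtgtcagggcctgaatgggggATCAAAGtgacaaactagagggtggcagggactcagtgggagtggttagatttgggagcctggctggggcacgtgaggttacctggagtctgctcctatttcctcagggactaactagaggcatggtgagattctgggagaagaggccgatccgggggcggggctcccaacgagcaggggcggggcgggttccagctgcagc
Rtn4, chr11:29692648-29692897, plus strand: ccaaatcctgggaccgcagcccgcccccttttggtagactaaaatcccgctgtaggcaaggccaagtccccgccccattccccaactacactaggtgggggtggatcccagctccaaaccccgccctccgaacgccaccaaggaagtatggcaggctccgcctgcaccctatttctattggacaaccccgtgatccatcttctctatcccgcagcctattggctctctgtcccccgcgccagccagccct
A match is a description of letters and not evidence of a bound site, and its lack says nothing of the factor.

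Other genes of the Nogo system were counted from lists, none of whose members passed the test. Of 9 further receptor ligands, 3 were tested: the B cell factor gene Tnfsf13b, which also binds the Nogo receptor, at 6.02 ± 0.73 against 10.4 ± 4.67 CPM, the adhesion receptor gene Adgrb1 at 1.45 ± 0.20 against 2.48 ± 0.62 CPM, and the proteoglycan gene Vcan at 0.634 ± 0.180 against 1.25 ± 0.56 CPM. The myelin ligands Mag and Omg reached at most 9 counts in a library. Of 12 other receptors and co-receptors, 9 were tested, 6 below 0 and 3 above. The phosphatase Ptprf, the endocytic receptor Lrp1 and the tetraspanin Tspan3 were the most abundant, at 627 ± 142 against 707 ± 101 CPM, 609 ± 146 against 586 ± 91.4 CPM and 348 ± 33.6 against 320.1 ± 63.8 CPM. All 3 overlapped between groups. Nus1, the Nogo-B receptor, was higher without overlap, at 158 ± 15.7 against 125 ± 8.61 CPM, and did not pass (log2 fold change 0.34 ± 0.15, edgeR adjusted p = 0.418). S1pr2, a sphingosine phosphate receptor that also binds Nogo-A, was lower without overlap, at 1.62 ± 0.33 against 2.39 ± 0.23 CPM (log2 fold change -0.55 ± 0.33, adjusted p = 0.587). Ptprs, a phosphatase that binds chondroitin sulfate proteoglycans, overlapped, at 7.01 ± 2.54 against 15.1 ± 6.49 CPM (log2 fold change -1.11 ± 0.43, adjusted p = 0.377).

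In the RhoA arm downstream of the receptor no gene passed and all groups overlapped. All 12 genes were tested, 7 above 0 and 5 below, with a median log2 fold change of 0.02 against -0.03 over all genes. Rhoa itself was measured at 280.5 ± 16.8 against 277 ± 3.87 CPM, its inhibitor Arhgdia at 505 ± 51.4 against 433 ± 46.1 CPM and the actin-severing gene Cfl1 at 448 ± 19.7 against 398 ± 67.7 CPM. Of 12 neurotrophins and their receptors and adaptors 5 were tested. Sort1, the sorting receptor that partners with NGFR, was measured at 257 ± 35.5 against 243 ± 73.3 CPM. The adaptor Traf6 was higher without overlap, at 66.4 ± 7.21 against 34.6 ± 5.16 CPM (log2 fold change 0.94 ± 0.17, edgeR adjusted p = 0.138), and did not pass. Sorcs2, another sorting receptor of that family, was measured at 12.5 ± 9.63 against 10.4 ± 9.50 CPM.

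Genes that work beside reticulons in the ER did not pass either. Of 15 ER-shaping genes 14 were tested, 7 above and 7 below 0 (median 0.01). Reep6, the most abundant, was measured at 317 ± 95.9 against 334 ± 137 CPM, Arl6ip1 at 238 ± 14.1 against 292 ± 44.3 CPM and the tubule-fusing Atl2 at 261 ± 58.4 against 249 ± 119 CPM. Of 7 ER-phagy receptors 6 were tested (median -0.03), among them Retreg3 at 95.6 ± 9.36 against 93.6 ± 11.2 CPM, Sec62 at 77.6 ± 7.61 against 87.1 ± 8.97 CPM and Retreg2 at 67.4 ± 7.95 against 67.6 ± 7.92 CPM. The protease BACE1, whose activity RTN3 and RTN4 restrain, and genes of amyloid precursor processing were all tested, 6 above and 4 below 0 (10 genes, median 0.10). App was measured at 538 ± 111 against 433 ± 74.3 CPM, Aplp2 at 228 ± 28.2 against 215 ± 18.2 CPM and the secretase subunit Ncstn at 223 ± 11.1 against 164 ± 9.20 CPM (log2 fold change 0.44 ± 0.14, edgeR adjusted p = 0.290).

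**Figure D4:**
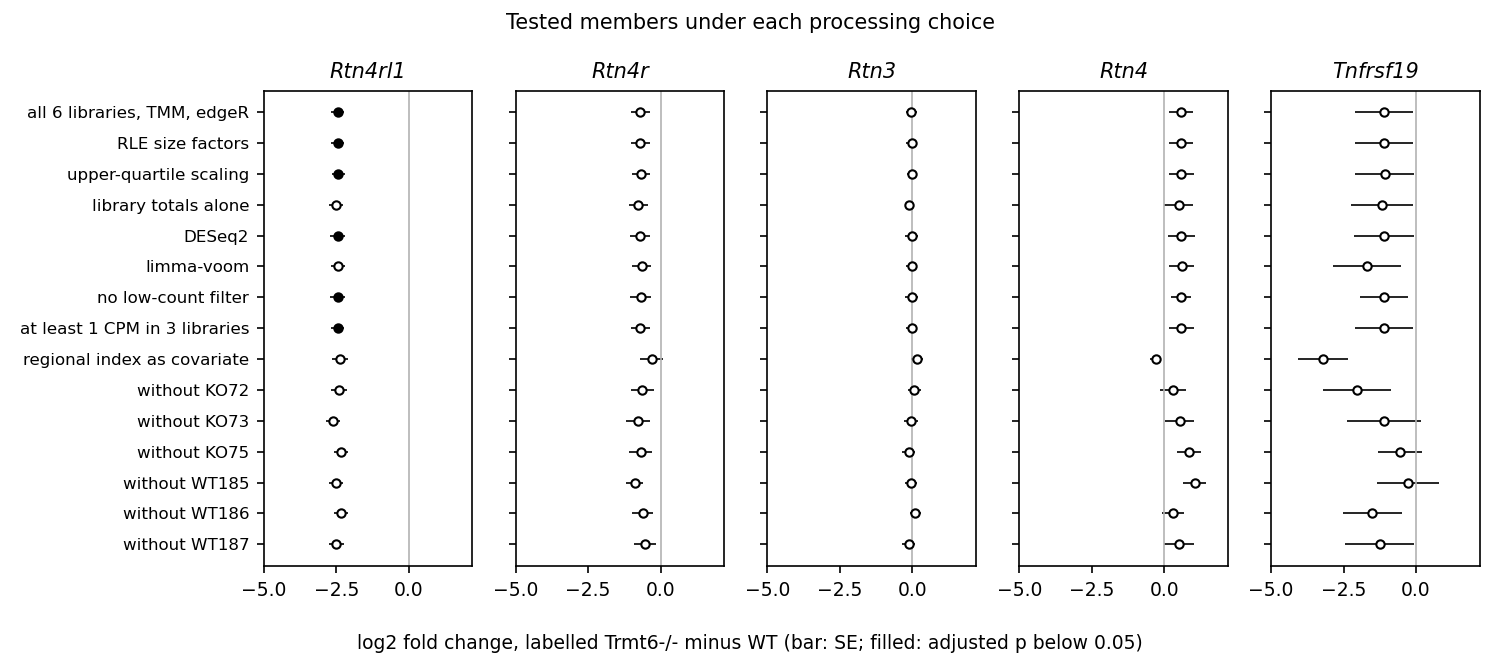
Log2 fold change (labelled Trmt6-/- minus WT) of the 5 tested members under each processing choice, with its SE as a bar and filled points where the adjusted p was below 0.05. Rtn4rl1 stays between -2.62 and -2.33 in all settings, while Rtn4 and Rtn3 lie on both sides of 0.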

How the data were processed

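Total RNA of 6 libraries, 3 per group, was made into cDNA and amplified, per the labels' protocols. The authors deposited 1 table of raw counts with the exonic length of each gene, written by featureCounts 2.0.1 on GENCODE M23 with paired reads and no strand or multimapping option, per the file headers. The submitters' processing notes name fastp, HISAT2 and mm10. Alignment settings are not given in the sources used here. Library names carry a group but no replicate number, and p-values measure the spread between these libraries.

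Symbols, exons and coding sequences came from GENCODE M21 on the same assembly. It matched 55154 of 55335 gene identifiers, and exons of all 10 members were the same in both releases. Low counts were removed by filterByExpr, libraries were scaled by TMM, and the test was that of edgeR 4.0.16 (quasi-likelihood F test, two-sided, genotype as only term, Benjamini-Hochberg over 14107 genes, threshold 0.05) in R 4.3.3. CPM uses TMM-scaled sizes, and SD is over 3 libraries. TPM divides counts by the deposited length, so isoform use can shift it. On simulated data with 200 of 14201 genes changed 4-fold, 92.5% were recovered. Every simulated gene had the same dispersion (spread between libraries), which real genes do not share, so this rate does not carry over to these data. Coding sequences were aligned locally with Biopython 1.88. Alternatives were RLE, upper-quartile and total scaling, DESeq2 1.42.0, limma-voom (limma 3.58.1), 2 other filters, the position index as covariate and each library left out. PCR without molecular identifiers means that count limits cover counting error only.

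Members and lists were chosen with earlier results of these data known. Named genes were Trmt6, the members, the 3 most abundant tested genes of each list of the Nogo system and the ER and any of them past the threshold, the 5 most like Rtn4rl1, 2 tested neighbours on each side of it, and markers of position. Nus1, S1pr2, Ptprs, Chgb, Ret, Snap25, Erbb3, Olfm4, Rnf43, Ang4, Defa30, Clca1 and the markers and ligands at or near 0 were singled out once values were known. The lists were of the Nogo system, the ER, cell types and position.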

Additional observations from a re-analysis of the deposited data

How the results depend on the processing

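The number of genes called was 6 with TMM and edgeR, 0 with library totals, limma-voom or the position index as covariate, 159 without a low-count filter and 633 with DESeq2. It ran from 0 to 6 with each library left out. Without WT185 it was 2 and without KO72 6, and 0 without each of the others. At an unadjusted p below 0.05 there were 1702, 1646 and 2902 genes in the fits with 0 calls, and 1047 to 2109 with a library left out. Of the members, 1 was called with TMM, RLE or upper-quartile scaling, with either other filter and with DESeq2. With library totals, limma-voom or the position index as covariate 0 were called, and 0 in each fit with a library left out (0 to 0). The member was Rtn4rl1 in every fit that called 1. Its edgeR adjusted p was 0.0416 with RLE and 0.0408 with upper-quartile scaling. It was 0.0433 with at least 1 CPM in 3 libraries and 0.00232 without a low-count filter. The DESeq2 adjusted p was 4.12e-18. For Rtn4rl1 the adjusted p was 0.0624 with library totals, 0.0803 with limma-voom and 0.0588 with the index. Its direction held in all fits. Rtn4 reversed with the index (-0.29). Rtn3 reversed with the index (0.16), without KO72 (0.07) and without WT186 (0.11), within -0.12 to 0.11 with each library left out. Library totals moved the median over all genes to -0.11 from -0.03. The cause of these changes was not tested. The order of members by TPM kept 10 of 10 ranks by median share and 8 to 10 with a library left out. The sign of the fold change of Rtn4r and Tnfrsf19 held in every fit. At 3 to 71 counts in all 6 libraries, Ngfr, Rtn4rl2, Lingo1, Rtn1 and Rtn2 were too shallow for a comparison. No paired analysis was possible because the library names carry no replicate numbers.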
